A study of Sus scrofa with 6 samples.

Results

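Pig chromosomes 15, 16, 17, 18 and 2 were described by the methylation-enriched peaks that lie on them. The members are all peaks of chromosomes 16, 17, 18 and 2 in the list of the library Wannanhua 1, the only list that reaches them, and the peaks of chromosome 15 that end at or before base 148188827 in the lists of Yorkshire 3 and Wannanhua 1, the 2 lists that reach it. That base is where the Yorkshire 3 list stops. The rule gave 31040 of the 393096 deposited peaks: 7481 of Yorkshire 3 and 23559 of Wannanhua 1, which are 5115 on chromosome 15, 3576 on chromosome 16, 3674 on chromosome 17, 3549 on chromosome 18 and 7645 on chromosome 2. The rule used position only and did not pick peaks by width, tags or enrichment. Every list is cut off at 65516 peaks, so a list reaches these chromosomes only where it has few peaks on those before them. Chromosome 1 held 11894 peaks in Wannanhua 1 and 17531 in Yorkshire 3, against 19725 to 22791 in the other lists. Peak density, also that of the chromosomes set beside them, is thus tied to which lists are described.

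The study profiled longissimus dorsi, a back muscle beside the spine, from females of the purebred Yorkshire, a lean Western pig breed, and the purebred Wannanhua, a Chinese one, with 3 libraries per breed. No treatment is named, and the labels give no age and do not say whether each library came from its own animal. The assay was methylated DNA immunoprecipitation with sequencing (MeDIP-seq), in which sheared DNA that carries methylated cytosine is enriched and sequenced. A peak is a stretch where the sequenced fragments, called tags, pile up above the local background. Only 1 library per breed reaches chromosome 15 and a single library reaches the rest, so breed and library cannot be told apart here and no breed test was made.

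In mammals most cytosines that precede a guanine are methylated, and MeDIP signal is strongest where such sites are both dense and methylated. In pigs, chromosomes 13 to 18 are acrocentric, with the centromere near one end, while chromosomes 1, 2, 10, 11 and 12 have arms on both sides of it. Chromosome 15 carries MSTN, which encodes the growth brake myostatin, TTN, which encodes the sarcomere spring titin, and PRKAG3, which encodes a muscle subunit of the energy sensor AMPK. Chromosome 16 carries the growth hormone receptor gene GHR, chromosome 18 the leptin gene LEP, and chromosome 2 the growth factor gene IGF2 and MYOD1, a master regulator of muscle identity. The lists name no genome build, so no peak was assigned to a gene and no sequence is printed. Coordinates are those of the lists.

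Both libraries are shallow among the 6, with 6728444 tags after duplicate removal in Yorkshire 3 and 7413391 in Wannanhua 1, against 10600292 to 17108367 in the other libraries. The peak caller put the fragment length at 97 bp for Yorkshire 3 and at 179 bp for Wannanhua 1. Their rates of redundant tags were 0.69 and 0.29. The smallest peak held 7 tags in Yorkshire 3 and 9 in Wannanhua 1, so a stretch without a peak is one where no peak reached the caller's cutoff at this depth. Tags outside peaks are not counted in the lists. Intervals below are 95% intervals that cover counting error only, and the peaks of a library are not replicates.

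Peak density differed among these chromosomes, with chromosome 15 poor in peaks and chromosomes 17 and 18 rich. In Wannanhua 1, chromosome 15 had 34.5 peaks per Mb (33.6 to 35.5, exact Poisson interval). Chromosome 16 had 41.2 (39.8 to 42.5), and chromosome 2 had 47.0 (46.0 to 48.1). Chromosome 17 had 52.7 (51.0 to 54.4), and chromosome 18 had 58.0 (56.1 to 59.9). The intervals of these 5 chromosomes do not overlap one another. Set against the other chromosomes of the same list, chromosome 15 lay below chromosome 13 (36.5) and chromosome 1 (37.7), chromosomes 16 and 2 lay between chromosome 1 and chromosome 11 (50.01), and chromosome 18 lay just under chromosome 10 (59.1), whose interval (57.4 to 60.8) overlaps its own. Chromosome 17 lay above chromosome 11 with overlapping intervals. None of the 5 came near chromosome 12, which had 71.8.

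**Figure D1:**
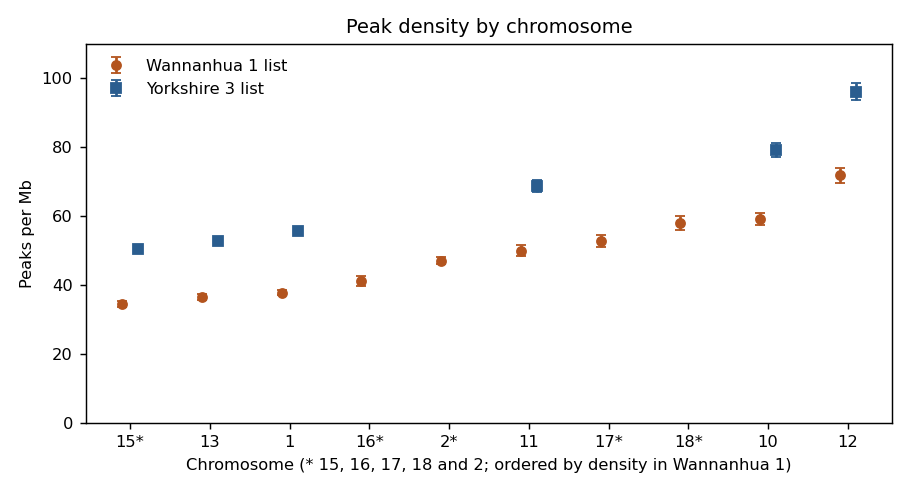
Peaks per Mb (vertical axis) for 10 chromosomes in the Wannanhua 1 list (circles) and 6 in the Yorkshire 3 list (squares), with exact 95% Poisson intervals; stars mark chromosomes 15, 16, 17, 18 and 2. Chromosome 15 is lowest in both lists, at 34.5 and 50.5 peaks per Mb, and chromosome 12 is highest in both.

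A ratio to chromosome 1 of the same list removes the overall number of peaks of a library. For chromosome 15 this ratio was 0.908 (0.883 to 0.933) in Yorkshire 3, from 50.5 against 55.6 peaks per Mb, and 0.915 (0.885 to 0.945) in Wannanhua 1. The 2 libraries, of different breeds, differ by less than either interval. Chromosome 15 also lay below chromosome 13 in both lists, at 0.959 times (0.931 to 0.987) in Yorkshire 3 and 0.947 times (0.914 to 0.980) in Wannanhua 1. In Wannanhua 1 the ratio to chromosome 1 was 1.09 (1.05 to 1.13) for chromosome 16, 1.25 (1.21 to 1.28) for chromosome 2, 1.397 (1.35 to 1.45) for chromosome 17 and 1.54 (1.48 to 1.60) for chromosome 18.

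The spread of such ratios between libraries can be read only on chromosomes that all 6 lists cover. There the ratio to chromosome 1 ran from 0.943 to 0.967 for chromosome 13, from 1.20 to 1.33 for chromosome 11, from 1.397 to 1.57 for chromosome 10 and from 1.56 to 1.90 for chromosome 12. Wannanhua 1 held the highest of the 6 values on each of these 4 chromosomes. The values of chromosomes 16, 17, 18 and 2 come from that library alone, and how far other libraries would move them was not tested. With peaks of score 100 or more, chromosome 16 was 1.01 (0.940 to 1.08) and chromosome 15 was 0.968 and 0.995 in Yorkshire 3 and Wannanhua 1, and the interval of each then took in 1 (0.932 to 1.00 and 0.939 to 1.05 for chromosome 15).

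The end of the Yorkshire 3 list also bears on the low density of chromosome 15. The last Wannanhua 1 peak inside the limit, from 148183191 to 148183587, had 14 tags and a fold enrichment of 12.9. The first outside, from 148188399 to 148189198, had 20 tags and a fold enrichment of 9.17. The 9.49 Mb past the limit held 586 peaks in Wannanhua 1, or 61.7 per Mb. With them chromosome 15 had 36.2 peaks per Mb, 0.991 times (0.958 to 1.03) the density of chromosome 13. Over its whole length it was thus still the lower of the pair, but the interval takes in 1, unlike that up to the limit. The peaks past the limit had a median width of 723.5 bp and a median fold enrichment of 9.03. Values of chromosome 15 below on width, fold, coverage, spacing, sharing and tag ratios leave this stretch out. The chromosomes set beside it run to their last peak.

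Peak widths and enrichment followed density. In Wannanhua 1 the median peak was 465 bp wide on chromosome 15, 475 bp on 16, 493 bp on 2, 502 bp on 17 and 524 bp on 18, the same order as the densities. The middle 50% of widths ran from 396 to 551 bp on chromosome 15 and from 416 to 697 bp on chromosome 18, so the chromosomes differed mainly in their wider peaks. Median tags per peak were 13 on chromosomes 15 and 16, 14 on 17 and 2, and 15 on 18. The fold enrichment, which is the peak caller's ratio of tags to local background, went the other way. Its median was 16.5 on chromosome 15, 15.2 on 16, 14.0 on 2, 13.4 on 17 and 12.6 on 18.

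Peaks of chromosome 15 in Yorkshire 3 were narrower, with a median of 299 bp, and had a median of 13 tags and a median fold enrichment of 25.1. In that list too the median width on chromosome 15 was lower, and the median fold enrichment higher, than on chromosomes 1, 10, 11, 12 and 13, where widths ran from 300 to 318 bp and folds from 16.2 to 24.3. Chromosome 15 is described only up to the limit in both lists, without its far end, while the others run to theirs. The width interval of chromosome 15 (297 to 301 bp) overlaps that of chromosome 13 (299 to 302 bp), and so does its fold interval (24.65 to 25.77 against 23.93 to 24.88). In Wannanhua 1 the width intervals of chromosomes 15 and 13 overlap as well (460 to 468 and 464 to 471 bp). Over the 10 chromosomes of Wannanhua 1, Spearman's rho was 0.964 between density and median width, -0.976 between density and median fold enrichment, and -0.806 between length and density. These chromosomes share a library, a depth and a background model, so the values are descriptions.

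**Figure D2:**
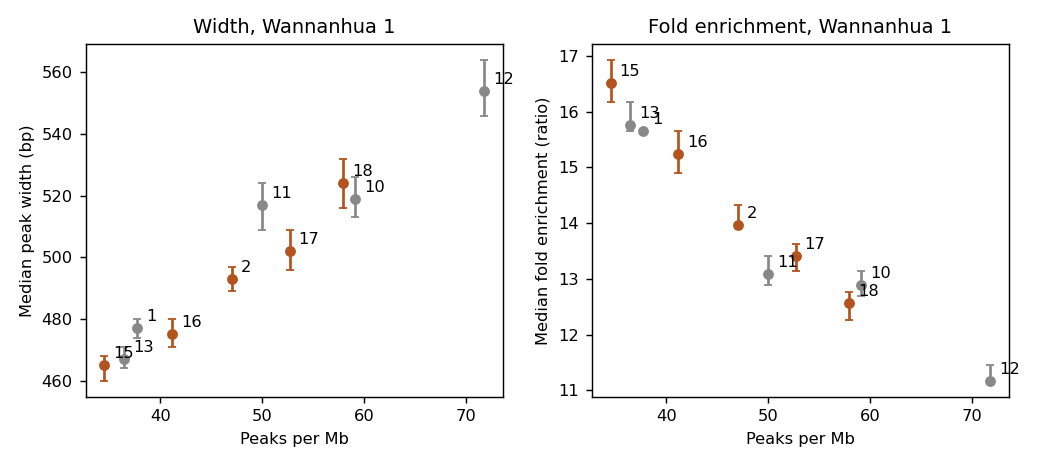
Median peak width in bp (left) and median fold enrichment (right) against peaks per Mb for 10 chromosomes of Wannanhua 1, with 95% order-statistic intervals; coloured points are chromosomes 15, 16, 17, 18 and 2, grey points the others. From chromosome 15 to chromosome 18 the median width goes from 465 to 524 bp and the median fold enrichment from 16.5 to 12.6.

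Within chromosomes the same pairing appeared over 1 Mb windows. Spearman's rho between the number of peaks in a window and their median fold enrichment was -0.682 on chromosome 15 (148 windows), -0.707 on 16 (86), -0.859 on 17 (69), -0.890 on 18 (61) and -0.851 on 2 (162) in Wannanhua 1, and -0.703 on chromosome 15 in Yorkshire 3. With median width rho was 0.329, 0.490, 0.725, 0.786 and 0.740 in the same order, and 0.194 in Yorkshire 3. Neighbouring windows are not independent. The caller takes the background of a peak from a window around it in the same library, and the part of that window in these relations was not tested.

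Peaks covered 1.73% of chromosome 15 in Wannanhua 1 and 1.58% in Yorkshire 3. Coverage in Wannanhua 1 was 2.25% on chromosome 16, 2.72% on 2, 3.09% on 17 and 3.64% on 18, against 1.90% on chromosome 13 and 4.90% on chromosome 12. The median distance from a peak to the next was 14.5 kb on chromosome 15 (13.9 to 15.2), 12.05 kb on 16, 10.7 kb on 2, 10.3 kb on 17 and 9.57 kb on 18. Stretches of more than 100 kb without a peak numbered 262 on chromosome 15, 206 on 2, 143 on 16, 67 on 17 and 48 on 18, chromosomes of unlike length. They were 5.12% of the spaces between peaks on chromosome 15, 4.00% on 16, 2.69% on 2, 1.82% on 17 and 1.35% on 18. On the other chromosomes of that list the share was 4.70% on 13, 4.36% on 1, 2.53% on 11, 0.877% on 10 and 0.504% on 12. Yorkshire 3, with more peaks, had 141 such stretches on chromosome 15. Among chromosomes 15 to 18 and 2, the longest in Wannanhua 1 was 538 kb on chromosome 15, from 14398756 to 14936538. The longest was 305 kb on chromosome 16, 369 kb on 17, 227 kb on 18 and 399 kb on 2. In the same list chromosomes 1 and 11 had longer ones (626 and 564 kb), and chromosomes 10, 12 and 13 shorter ones. In Yorkshire 3 the longest on chromosome 15 was 310 kb and lay elsewhere, from 132231619 to 132541807.

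Peaks were unevenly placed: chromosomes 15, 16 and 17 had a sparse start, and chromosomes 18 and 2 a dense one. On chromosome 15 the first 20 Mb held 25.4 peaks per Mb in Wannanhua 1 against 35.0 in the interior between the end zones, a ratio of 0.726 (0.660 to 0.796). Yorkshire 3 gave 39.4 against 50.6, a ratio of 0.778 (0.722 to 0.838). The ratio was 0.712 (0.648 to 0.781) on chromosome 16 and 0.758 (0.695 to 0.826) on chromosome 17. On chromosome 18 it was 1.76 (1.61 to 1.93), and on chromosome 2 it was 1.54 (1.45 to 1.63), so there the first 20 Mb was rich in peaks. Chromosomes 1, 10, 11 and 12 of the same list had 1.96, 1.21, 2.32 and 1.22, and chromosome 13 had 0.931 (0.858 to 1.01).

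At the far end all 5 chromosomes were denser than their interior. The last 20 Mb had 1.30 times (1.20 to 1.399) the interior density on chromosome 16, 1.28 times (1.19 to 1.38) on 17, 1.88 times (1.72 to 2.05) on 18 and 1.37 times (1.29 to 1.46) on 2. On chromosome 15 the lists share 10.5 Mb of that zone, where the ratio was 1.32 (1.20 to 1.45) in Wannanhua 1 and 1.38 (1.28 to 1.49) in Yorkshire 3. Both ends pooled, the density over that of the interior was 0.932 and 0.986 on chromosome 15 in Wannanhua 1 and Yorkshire 3, 1.00 on 16, 1.02 on 17, 1.82 on 18 and 1.45 on 2. A pooled value near 1 on chromosomes 15, 16 and 17 therefore joined a sparse start to a dense far end.

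**Figure D3:**
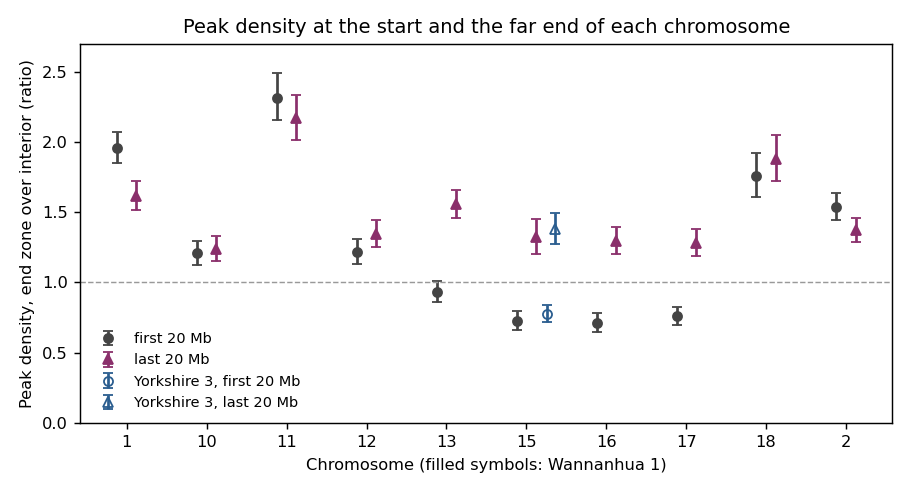
Peak density in the first (circles) and last (triangles) 20 Mb over the density of the interior, with exact 95% intervals, for 10 chromosomes of Wannanhua 1 (filled) and chromosome 15 of Yorkshire 3 (open); of the last 20 Mb of chromosome 15, 10.5 Mb is covered. First-zone ratios lie between 0.712 and 0.758 on chromosomes 15, 16 and 17 in Wannanhua 1 and at 1.54 and 1.76 on chromosomes 2 and 18, and every last-zone ratio is above 1.

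These ratios moved with the width of the zone. In the first 10 Mb the ratio was 0.629 (0.548 to 0.720) on chromosome 15 and 0.612 (0.543 to 0.687) on 17 in Wannanhua 1, but 0.911 (0.811 to 1.02) on 16. In the first 5 Mb it was 0.482 (0.400 to 0.576) on 17, 0.818 (0.687 to 0.966) on 15 in Wannanhua 1 and 0.949 (0.831 to 1.08) on 15 in Yorkshire 3. The far end of chromosome 16 was steeper in narrower zones, at 2.32 (2.10 to 2.56) in the last 5 Mb. On chromosome 2 the far end turned: the last 5 Mb held 40.2 peaks per Mb, 0.866 times (0.749 to 0.997) the interior.

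Cutting each chromosome into 10 parts of equal length, numbered from the start, gives the shape in between. On chromosome 15 density climbed from 21.1 peaks per Mb in part 1 to 42.8 in part 6 in Wannanhua 1, and from 34.5 to 61.8 in Yorkshire 3, with a small step back in part 5 of Wannanhua 1. Both lists dropped in part 7, to 28.7 and 44.1, and reached 52.7 and 75.5 in the covered stretch of part 10. The number of Wannanhua 1 peaks per Yorkshire 3 peak stayed between 0.612 and 0.749 in the 10 parts. Chromosome 16 had its minimum in part 2, at 19.9 peaks per Mb, and its maximum in part 10, at 80.02. Chromosome 17 went from 28.6 in part 1 to 78.3 in part 10, with a dip to 26.8 in part 4. Chromosome 18 was highest at both ends, at 80.9 and 92.8, and lowest in part 6, at 29.4. Chromosome 2 had its highest value inside the chromosome, 69.5 in part 5, above the 62.5 of part 1 and the 56.7 of part 10, and its lowest in part 7, 26.02.

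**Figure D4:**
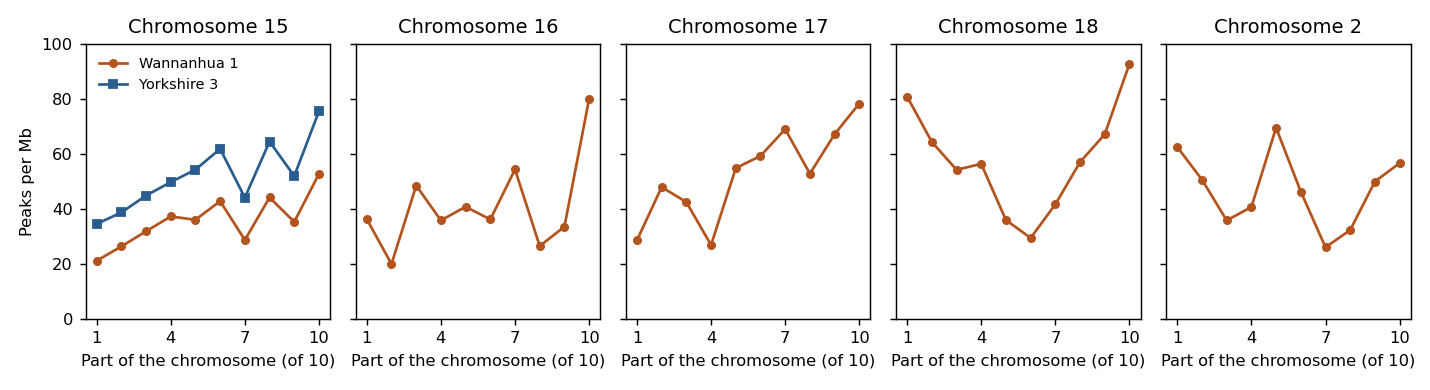
Peaks per Mb in 10 parts of equal length of chromosomes 15, 16, 17, 18 and 2, counted from the start, in Wannanhua 1 (circles) and, for chromosome 15, Yorkshire 3 (squares); part 10 of chromosome 15 is covered only up to the end of the Yorkshire 3 list. Chromosome 18 dips in the middle to 29.4, chromosome 2 is highest in part 5 at 69.5, and on chromosome 15 both lists have their low in part 1 and their high in part 10.

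Single windows of 1 Mb showed the range. On chromosome 15 both lists had their densest window at 117000001 to 118000000, with 126 peaks in Yorkshire 3 (105 to 150) and 83 in Wannanhua 1 (66.1 to 103). The next densest differed, at 145000001 to 146000000 with 108 peaks in Yorkshire 3 and at 51000001 to 52000000 with 82 in Wannanhua 1. The sparsest window lay from 30000001 in Yorkshire 3, with 14 peaks, and from 27000001 in Wannanhua 1, with 4. Windows with fewer than 20 peaks made up 21.6% of chromosome 15 in Wannanhua 1, against 15.1% on 16, 9.88% on 2, 2.90% on 17 and 1.64% on 18. In the same list they made up 17.1% on chromosome 1, 16.5% on 13, 13.8% on 11, 3.17% on 12 and 2.53% on 10.

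The densest windows of the other chromosomes in Wannanhua 1 lay within 20 Mb of an end, except for 1 on chromosome 16. Such zones make up 46.1%, 57.4%, 65.3% and 24.6% of chromosomes 16, 17, 18 and 2. Chromosome 18 had 112 peaks (92.2 to 135) from 60000001 and 104 from 55000001. Chromosome 17 had 96 from 68000001 and 90 from 64000001. Chromosome 16 had 112 from 83000001 and 96 from 51000001. Chromosome 2 had 96 from 6000001 and 94 from 146000001. The sparsest windows held 11 peaks on chromosome 16 (from 16000001), 14 on 17 (from 27000001), 14 on 18 (from 23000001) and 8 on 2 (from 14000001). Those of chromosomes 16 and 2 also lay within 20 Mb of an end. The median peak width was 731.5 bp in the densest window of chromosome 18 and 745 bp in that of chromosome 17, against 459 and 373.5 bp in their sparsest. On chromosome 15 of Wannanhua 1 it was 473 bp in the densest window and 503 bp in the sparsest, which holds 4 peaks.

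A few peaks held very many tags. The peak with the most tags in the whole Wannanhua 1 list lay on chromosome 16 from 36780753 to 36787695, with 5976 tags (5825 to 6130) over 6943 bp, or 861 tags per kb, against 37.9 per kb over all peaks of that chromosome. Its fold enrichment of 3.29 ranked 65513 of the 65516 in the list. Also on chromosome 16, a peak from 54721492 to 54727771 had 3679 tags and a fold of 4.17, and one from 54881652 to 54885016 had 1853 tags and a fold of 4.80. These 3 peaks held 15.5% of all tags in peaks of chromosome 16, whereas the 3 largest held 0.805% to 2.73% on chromosomes 15, 17, 18 and 2 of Wannanhua 1. Scaled to library size as CPM of filtered tags, the tags in peaks of chromosome 16 came to 115 CPM per Mb, and to 95.5 CPM per Mb without its 10 peaks of 2.5 kb or more.

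On chromosome 2 a peak from 134067242 to 134070614 had 1970 tags over 3373 bp and the highest score of the chromosome, with a fold of 6.77. The authors ran the caller with no control library, which leaves differences in copy number or mappability uncorrected, and the part of these in such peaks was not tested.

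The highest scores of chromosomes 17 and 18, and those next to the highest on chromosome 2, belonged to peaks of 44 to 130 tags. On chromosome 17 the highest score belonged to 37759692 to 37760128, with 125 tags over 437 bp and a fold of 29.9, followed by 6394078 to 6394418, with 70 tags and a fold of 38.3, and 69458119 to 69459073, with 84 tags and a fold of 33.8. On chromosome 18 the 3 highest scores were at 394681 to 395591 (117 tags, fold 18.9), 60474106 to 60474919 (123 tags, fold 21.5) and 37541417 to 37542642 (130 tags, fold 13.8), of which the first pair lay within 1 Mb of a chromosome end. On chromosome 2 the scores next to the highest were at 49511005 to 49511336 (44 tags, fold 33.7) and 958466 to 959335 (106 tags, fold 14.2).

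By fold enrichment, among peaks of at least 10 tags, chromosome 16 was led by 61213107 to 61213524, with 39 tags and a fold of 47.2. Chromosome 2 was led by 37747997 to 37748494 with 27 tags (17.8 to 39.3) and a fold of 47.0, chromosome 18 by 46898614 to 46898960 with 28 tags and a fold of 41.2, and chromosome 17 by 30801522 to 30801963 with 22 tags and a fold of 39.1. These peaks were 347 to 498 bp wide and lay 14.3 to 37.7 Mb from the nearest chromosome end.

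The widest peaks of chromosomes 17, 18 and 2 lay near an end, while that of chromosome 16, the peak of 5976 tags named above, lay 36.8 Mb from the nearest end. The widest peak of chromosome 17, from 69580635 to 69589168, was 8534 bp wide, ranked 2 by width in the whole list, held 894 tags and lay 0.115 Mb from the last peak base of the chromosome. The widest of chromosome 18, from 299456 to 303226, had 198 tags over 3771 bp, and that of chromosome 2, from 541359 to 545880, had 334 tags over 4522 bp. Of the peaks of at least 2.5 kb in Wannanhua 1, 16 of 17 on chromosome 17, 16 of 16 on 18 and 28 of 29 on 2 lay within 20 Mb of an end. These zones take up 57.4%, 65.3% and 24.6% of the chromosomes and hold 57.9%, 77.4% and 32.2% of all their peaks. Chromosomes 1 and 10 to 13 of the same list were alike in this, with 90.5% to 95.0% of such wide peaks in their zones. On chromosome 16 it was 7 of 10, and on chromosome 15 it was 3 of 7 in Wannanhua 1 and 0 of 3 in Yorkshire 3, in zones that make up 46.1% and 20.6% of the length.

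On chromosome 15 the 2 lists could be laid over each other. Of the Yorkshire 3 peaks 4014 of 7481, or 53.7% (52.5 to 54.8, exact binomial interval), overlapped a Wannanhua 1 peak by at least 1 bp, and of the Wannanhua 1 peaks 3944 of 5115, or 77.1% (75.9 to 78.3), overlapped one of Yorkshire 3. On chromosomes 1, 10, 11, 12 and 13 the shares ran from 48.1% to 53.1% and from 62.4% to 75.4%. Chromosome 15, up to the limit, thus had the highest share in both lists among these 6 chromosomes. In both lists its interval overlaps that of chromosome 13 (52.2 to 54.0 in Yorkshire 3 and 74.4 to 76.3 in Wannanhua 1). With 50% reciprocal overlap the shares on chromosome 15 were 44.5% and 65.1%.

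Peaks found in both lists were stronger than the rest. Shared peaks of chromosome 15 had a median of 15 tags and a fold of 27.9 in Yorkshire 3, against 10 tags and 23.9 in unshared ones, and a median of 13 tags and a fold of 17.6 in Wannanhua 1, against 11 tags and 14.0. Peak counts in the 148 windows of 1 Mb followed each other at a Spearman's rho of 0.936 across windows. Tags of the single regions followed each other far less, at 0.336 over the 3944 regions called in both lists, where most regions hold few tags.

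The strongest regions of chromosome 15 in both libraries lay in 1 cluster. Of the 5 regions with the highest CPM in the weaker library, 4 fell within 187 kb, from 43697330 to 43883854. The first, from 43697330 to 43703140, held 897 tags in Yorkshire 3 and 619 in Wannanhua 1, or 133 and 83.5 CPM. The region from 43878224 to 43883854 held 839 and 514 tags, that from 43758571 to 43763297 held 743 and 455, and that from 43870061 to 43873671 held 556 and 370.

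These 4 wide regions held 2.75% of all tags in chromosome 15 peaks in Yorkshire 3 and 2.53% in Wannanhua 1, and their fold enrichment was 5.95 to 10.5. In CPM, Wannanhua 1 had 0.556 to 0.626 times the Yorkshire 3 level in the 4 regions. The fifth region, from 130839977 to 130840496, was narrow and had 149 and 92 tags with folds of 42.0 and 34.3. All 5 had a higher CPM in Yorkshire 3, in 1 library each. On that uncentred scale the median region of chromosome 15 called in both lists had a log2 ratio, Wannanhua 1 over Yorkshire 3, of -0.30. Centred as described below, the log2 ratio of tags was -0.71 to -0.54 in the 4 wide regions and -0.70 in the narrow one. Per kb of called peak, also centred, the wide regions had 0.05, -0.12, -0.12 and -0.09, and the narrow one had -0.35. Per kb without centring the wide regions had -0.57, -0.74, -0.75 and -0.71, and the narrow one had -0.98. Called lengths of the wide regions were similar in both lists, from 3310 to 5663 bp in Yorkshire 3 and from 3611 to 5811 bp in Wannanhua 1. The lower level of the wide regions in Wannanhua 1 was thus present per kb before centring. On the scale per kb it depended on the centring, not on the called length of these regions.

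Tags in regions called in both lists were compared as log2 of Wannanhua 1 over Yorkshire 3, centred on the median of the regions of chromosomes 1 and 10 to 13. The median on chromosome 15 was -0.16 (-0.20 to -0.14), close to -0.14 on chromosome 1 and -0.18 on chromosome 13, and unlike the 0.13 to 0.22 of chromosomes 10, 11 and 12. The middle 50% of regions on chromosome 15 ran from -0.58 to 0.30. At least 2-fold more tags in Wannanhua 1 were found in 200 of 3944 regions, 5.07%, where 10.5% of the 27667 regions of the 6 chromosomes passed that fold, and at least 2-fold more in Yorkshire 3 in 334, 8.47%, where 8.02% of all passed it. With 1 library each, these counts carry no test, and the 8.47% is near the share over all 6 chromosomes. With tags per kb of called peak the median was -0.07, and with 50% reciprocal overlap it was -0.04.

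**Figure D5:**
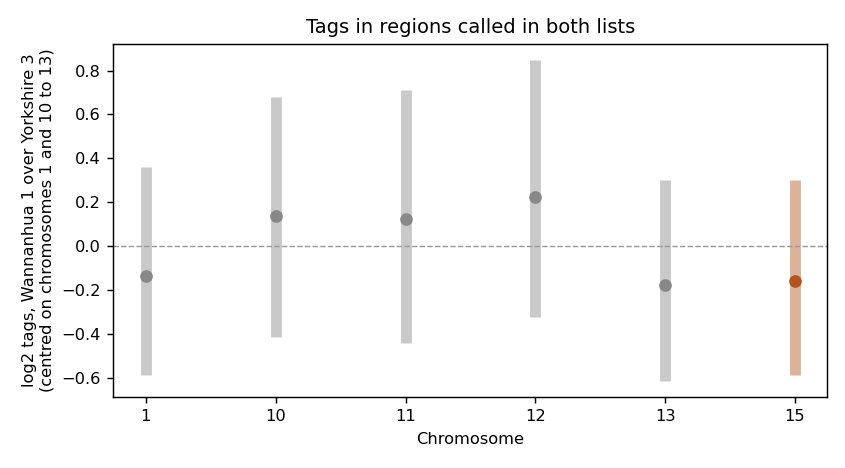
Median (points) and middle 50% (bars) over regions of the log2 ratio of tags, Wannanhua 1 over Yorkshire 3, in regions called in both lists, centred on chromosomes 1 and 10 to 13; chromosome 15 is coloured. Chromosome 15, at -0.16, sits beside chromosomes 1 and 13, and chromosomes 10, 11 and 12 lie above 0.

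The ratio was not even along chromosome 15. In the covered part of the last 20 Mb the median was 0.13, and 38 of 328 regions (11.6%) had at least 2-fold more tags in Wannanhua 1. In the interior the median was -0.18 with 149 of 3205 (4.65%), and in the first 20 Mb it was -0.21 with 13 of 411 (3.16%). On chromosomes 1 and 10 to 13 the first zone was high as well, with a median of 0.24 and 21.4% of regions, against 0.36 and 25.6% in the last zone and -0.18 and 5.27% in the interior. Called length moved with it: the median called length of Wannanhua 1 was 458 bp in the first zone of chromosome 15, 465 bp in the interior and 501 bp in the last, and 548.5, 469 and 586 bp on the other chromosomes. In the first zone, interior and last zone of chromosome 15, 8.27%, 8.71% and 6.40% of regions were at least 2-fold higher in Yorkshire 3. Over all 6 chromosomes that share was 8.02%. The part of called length and of fragment length in these ratios was not tested.

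The 3 regions most shifted to Wannanhua 1 all lay in the last part, from 145302969 to 145305202 (15 tags in Yorkshire 3 and 128 in Wannanhua 1, log2 ratio 3.09), from 147351189 to 147353095 (15 and 80, 2.42) and from 146720709 to 146722849 (14 and 74, 2.40). In all 3, called length ran from 285 to 366 bp for Yorkshire 3 and from 1907 to 2234 bp for Wannanhua 1, and per kb of called peak, centred in the same way, the log2 ratio was 0.75, 0.35 and 0.48. Per kb without centring it was 0.12, -0.28 and -0.15, so its sign depended on the centring in the last pair. The 3 most shifted to Yorkshire 3 were 45624903 to 45625853 (46 and 10 tags, log2 ratio -2.20), 52337625 to 52338088 (37 and 10, -1.89) and 77974586 to 77975421 (44 and 12, -1.87). Their centred ratio per kb was -0.90, -1.21 and -0.72, and without centring it was -1.52, -1.84 and -1.34.

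Peaks with no peak of the other list within 10 kb numbered 1432 in Yorkshire 3 (19.1%) and 279 in Wannanhua 1 (5.45%) on chromosome 15, against 7.88% to 18.7% and 3.55% to 5.67% on chromosomes 1 and 10 to 13. Those with the most tags in Yorkshire 3 were 145280897 to 145281327 (34 tags, fold 27.7), 37522342 to 37522688 (32 tags, fold 43.9) and 61715895 to 61716327 (32 tags, fold 26.2). In Wannanhua 1 they were 146638214 to 146639331 (36 tags, fold 6.43), 145692979 to 145693319 (32 tags, fold 10.4) and 50535733 to 50536374 (28 tags, fold 27.3). A missing peak means that the other library did not reach the caller's cutoff there, with 7 tags the smallest peak of Yorkshire 3 and 9 that of Wannanhua 1.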

How the data were processed

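MeDIP-seq peak lists of 6 libraries of pig muscle were deposited, 1 per library, and each list stops at 65536 lines. Per the file headers the authors called peaks with MACS (version 1.4.2 where a header names it; that line is blank for Wannanhua 1), with no control, a p cutoff of 1e-05 and at most 1 tag per position. For the aligner and build: not given in the sources used here. The deposited lists give raw tag counts per peak, the fold enrichment as a ratio to local background, a score (a multiple of the negative log10 of p; its heading is broken) and the width in bp, labelled by the authors as length. Fold and score are the authors' values and were ranked only within a list.

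Peaks were placed by summit. Density used the length to the last peak base (on chromosome 15, to 148188827). Intervals for counts are exact Poisson, for shares exact binomial (Clopper-Pearson), for density ratios the exact conditional binomial, and for medians order statistics. Regions are peaks of both lists merged at 1 bp overlap. The smallest peak, 7 or 9 tags, has a large counting error. Functions were tested on simulated peaks. Tools were Python 3.11.15, numpy 2.4.6, scipy 1.17.1, pandas 2.3.3 and matplotlib 3.10.9.

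Named peaks per chromosome are the 3 with the highest score, the widest and the highest fold with at least 10 tags (16, 17, 18 and 2). On chromosome 15 they are the 5 shared regions with the highest CPM (tags scaled to filtered library size) in the weaker library, the 3 most shifted each way and the 3 isolated peaks with most tags per list. The 2 densest windows, the sparsest and the longest stretch without a peak were also named. The members, lists and rules were chosen with earlier results of these data known. Alternatives were a score of 100, a width of 400 bp, merging within 1 kb, occupied windows, another reference, zones of 10 and 5 Mb, other overlaps and other scaling.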

Additional observations from a re-analysis of the deposited data

Results flagged for a closer look

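Chromosome 15 of Wannanhua 1 goes on past the end of the Yorkshire 3 list, in data outside the rule for its members. The report uses them only to show what the limit leaves out. That stretch of 9.49 Mb held 586 peaks, 61.7 per Mb (56.8 to 66.9, exact Poisson interval), 1.79 times (1.64 to 1.95) the density before it. Its peaks had a median width of 723.5 bp, a median of 25 tags and a median fold enrichment of 9.03. Only 1 library covers it, so there is no replicate.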

How the results depend on the processing

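No paired analysis was possible because 1 library reaches most of these chromosomes and no test was made, and no library could be left out. Of 90 alternative values, 29 stayed within the counting interval of the reported value and the others left it; the intervals are narrow, and the cause was not tested unless the setting itself shows it. Against pooled chromosomes 10 to 13, which are denser than chromosome 1, relative density was 0.758 (Yorkshire 3) and 0.717 (Wannanhua 1) on chromosome 15, 1.10 on 17 and 1.20 on 18, and it fell below 1 on 16 (0.856) and 2 (0.977, interval 0.952 to 1.00). At a score of 100 or more it was 0.968 and 0.995 on chromosome 15, 1.01 on 16, 1.21 on 17, 1.37 on 18 and 1.16 on 2. With peaks of at least 400 bp it was 0.772 on chromosome 15 in Yorkshire 3 and 1.62 on 18, and with the whole of chromosome 15, a setting chosen after seeing the data, it was 0.958 in Wannanhua 1. The end-to-interior ratio with zones of 10 Mb was 0.742 and 0.696 on chromosome 15, 1.48 on 16 and 1.67 on 18, and with 5 Mb it was 0.818 on 15 in Wannanhua 1, 1.62 on 16, 1.62 on 18 and 1.22 on 2. Of the last 10 Mb of chromosome 15 little is covered and of the last 5 Mb none, so its narrower zones are almost wholly its start. That ratio was 0.885 on 15 in Yorkshire 3, 1.60 on 18 and 1.33 on 2 at a score of 100 or more, and 1.23 on 15 in Yorkshire 3 and 1.59 on 2 with peaks of at least 400 bp. It thus crossed 1 on 15 in Yorkshire 3 with the wider peaks, and on 17 at a score of 100 or more (0.996), where the reported values of 0.986 and 1.02 had intervals that took in 1. The shared percent in Yorkshire 3 and Wannanhua 1 was 44.5 and 65.1 with 50% reciprocal overlap, 31.0 and 71.1 at a score of 100 or more, and 62.6 and 62.1 with equal numbers of top peaks. A score of 100 or more kept 3982 of the 7481 Yorkshire 3 peaks and 1721 of the 5115 Wannanhua 1 peaks. The unequal list sizes limit the Yorkshire 3 share at that setting. The median log2 ratio of tags on chromosome 15 was -0.041 with 50% reciprocal overlap, -0.068 per kb of called peak and -0.30 scaled by filtered tags, against -0.16. At a score of 100 or more, which keeps the stronger peaks, median width was 328 bp on 15 in Yorkshire 3 and 473, 484, 542.5, 582 and 522 bp on 15, 16, 17, 18 and 2 in Wannanhua 1. Median tags were then 17, and 17, 18, 20, 22 and 19, and median folds 31.9, and 22.0, 21.5, 18.3, 17.5 and 19.7. With peaks under 1 kb apart merged, median width was 305 bp, and 469, 485, 512, 535 and 502 bp. Depth limits every absent peak, since no peak held under 7 tags in Yorkshire 3 or 9 in Wannanhua 1.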
